A study of Mus musculus with 6 samples.

Results

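The ligands of the epidermal growth factor (EGF) family and their ERBB receptors were examined as 10 genes of the 20405 genes with a symbol on the arrays. These were the ligand genes *Ereg*, *Areg*, *Hbegf*, *Tgfa*, *Btc*, *Epgn* and *Nrg1* and the receptor genes *Egfr*, *Erbb2* and *Erbb3*. They were chosen by gene symbol, with earlier results from the same arrays known. The probe set of each gene was to be selected on its mean over the 6 arrays, but each of the 10 genes had 1 probe set, so no measured value decided which one was read.

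Total RNA came from M0505 cells, a line of mouse ovarian surface epithelial cells of the FVB/N strain, and from STOSE cells, the spontaneously transformed line that arose from M0505 cells on long-term passage. There were 3 arrays for M0505 and 3 for STOSE, and no engineered allele and no drug is named for either line. Both lines were grown in the same medium with 4% fetal calf serum and EGF at 0.002 μg/mL, so all values below were measured with added EGF present in the culture. STOSE is a single transformed line, the labels name the arrays of each line as biological replicates without saying how the cultures were separated, and p-values therefore measure only the spread between these arrays.

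EGF family ligands are made as membrane-anchored precursors whose outer part is cut free by metalloproteases of the ADAM family, and the released peptide binds receptor tyrosine kinases on the same or nearby cells. Ligand binding pairs the receptors, which then signal through the RAS and mitogen-activated protein kinase cascade and through phosphoinositide 3-kinase. *Egf*, *Tgfa*, *Areg* and *Epgn* encode ligands of EGFR, and *Hbegf*, *Btc* and *Ereg* encode ligands of EGFR and ERBB4. *Nrg1* encodes a ligand of ERBB3 and ERBB4. ERBB2 has no known ligand of its own and acts as a partner of the others. In the ovary, amphiregulin, epiregulin and betacellulin are known for passing on the ovulatory signal within the follicle.

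STOSE cells had more RNA of 3 ligands and less of 2. Epiregulin RNA rose from under background by at least 21.4-fold, *Tgfa* rose 6.56-fold and *Nrg1* rose 2.96-fold, while *Hbegf* and *Btc* fell by factors of 2.66 and 2.56. None of the 3 receptor genes changed by 2-fold. A gene was called at a limma adjusted p under 0.05, with Benjamini-Hochberg adjustment over all 20405 genes, together with a fold change of at least 2. Of all genes, 4.90% were called higher and 7.59% lower in STOSE cells, or 12.5% in either direction, against 3 and 2 of the 10 family genes. *Ereg* is among the 3 genes called higher, although its rise was known when the family was chosen. By the adjusted p alone 8 of the 10 passed, 6 of them higher and 2 lower, against 56.5% of all genes (31.6% higher and 24.8% lower), and the arrays of the lines did not overlap for 8 of the 10, against 64.6% of all genes.

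The reference table held a promoter, from 250 bases before the transcript start to 50 bases after it, for 6 of the 10 genes. Those of *Tgfa*, which rose most among the 6, of *Btc*, which fell, and of *Areg*, which was not called, are shown as the 3 outcomes among the ligands and are printed 5′ to 3′ on the strand of the gene, from RefSeq on GRCm38.p6. They are *Areg* (chr5:91139349-91139648, plus strand), *Btc* (chr5:91402945-91403244, minus strand) and *Tgfa* (chr6:86194972-86195271, plus strand). Capitals mark matches to any of 4 short motifs.

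Areg: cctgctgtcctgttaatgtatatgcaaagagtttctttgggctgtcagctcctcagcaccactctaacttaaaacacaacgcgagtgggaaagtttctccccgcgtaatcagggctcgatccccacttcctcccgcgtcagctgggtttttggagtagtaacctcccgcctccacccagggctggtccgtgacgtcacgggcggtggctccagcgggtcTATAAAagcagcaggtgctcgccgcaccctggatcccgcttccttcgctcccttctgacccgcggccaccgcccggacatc

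Btc: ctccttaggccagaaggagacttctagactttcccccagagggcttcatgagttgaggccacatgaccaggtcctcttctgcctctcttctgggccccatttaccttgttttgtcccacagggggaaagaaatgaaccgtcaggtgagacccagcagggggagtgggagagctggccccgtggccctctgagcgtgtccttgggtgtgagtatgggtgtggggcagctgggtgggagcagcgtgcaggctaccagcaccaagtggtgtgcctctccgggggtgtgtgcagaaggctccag

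Tgfa: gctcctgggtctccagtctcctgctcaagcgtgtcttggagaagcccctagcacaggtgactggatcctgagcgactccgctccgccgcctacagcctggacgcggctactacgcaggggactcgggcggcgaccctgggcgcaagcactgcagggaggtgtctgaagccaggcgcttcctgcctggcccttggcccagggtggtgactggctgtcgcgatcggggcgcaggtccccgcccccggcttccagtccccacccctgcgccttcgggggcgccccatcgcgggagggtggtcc

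The motifs were searched on both strands and in all 32851 promoters of the table. The AP-1 motif TGANTCA was held by 7.81% of them. The TATA box TATAAA was held by 13.6%. The motif CCAAT was held by 37.4%. The TEAD motif GGAATG was held by 14.7%. *Areg* held a TATA box 31 to 26 bases before its start and none of the others. *Epgn* held a TATA box and a CCAAT match, and *Erbb2* a TEAD and a CCAAT match. *Tgfa*, *Btc* and *Egfr* held none of the 4 in this window. No 2 matches overlapped.

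On these arrays a low value cannot be told from no RNA. The background level was therefore set from 1134 probe sets for olfactory receptors, genes that epithelial cells do not use, as their 95th percentile, a log2 value of 4.74. In RNA from whole cultures, fewer cells expressing a gene and less RNA per cell cannot be told apart, nor can gene copy number and transcription per copy. The ovarian surface epithelium label was checked on 14 marker genes, of which 13 were above background in each line. Of the 14, 5 were called lower in STOSE cells and none higher, against 7.59% and 4.90% of all genes. By the adjusted p alone 10 were lower and 1 was higher, against 24.8% and 31.6% of all genes. Those called were the keratin genes *Krt19*, *Krt8* and *Krt7* (log2 fold changes −5.56, −4.55 and −1.03), *Gata4* (−1.38) and *Bcam* (−1.04). The mesothelial gene *Upk3b* was at 12.25 in M0505 and 11.91 in STOSE cells and *Wt1* was at 11.39 and 10.76, differences that were under 2-fold but passed the adjusted p. *Lhx9* was the marker under background, and *Cdh1* stood just above it. The summed level of the 14 markers on the linear scale was 28635 to 29952 on M0505 arrays and 16316 to 17162 on STOSE arrays. Of 8 leukocyte markers 2 were above background in each line, and the defining marker *Ptprc* was at 3.79 and 3.81. The summed level of that list was 836 to 1093 on M0505 and 244 to 284 on STOSE arrays, led by *Cd68*. Of the endothelial markers 4 of 6 were above background in M0505 and 3 of 6 in STOSE cells, with a summed level of 860 to 940 and of 147 to 154. *Kdr* was the brightest of them in M0505 cells (9.58) and was under background in STOSE cells (4.41). Of the granulosa markers 2 of 6 and 3 of 6 were above background, with sums of 906 to 1032 and of 213 to 238. *Inha* was the brightest of them in M0505 cells (9.61) and was at 5.68 in STOSE cells. Of the fibroblast markers 6 of 8 were above background in each line, with sums of 5838 to 6266 and of 5722 to 6054. Single genes of this list differed in both directions, and *Thy1* was called higher (log2 fold change 1.49) and *Col1a2* lower (−2.45). The adjusted p alone was passed by 4 higher and 2 lower genes of the 8, against 31.6% and 24.8% of all genes. The part of these marker differences in the results below was not tested.

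**Figure D1:**
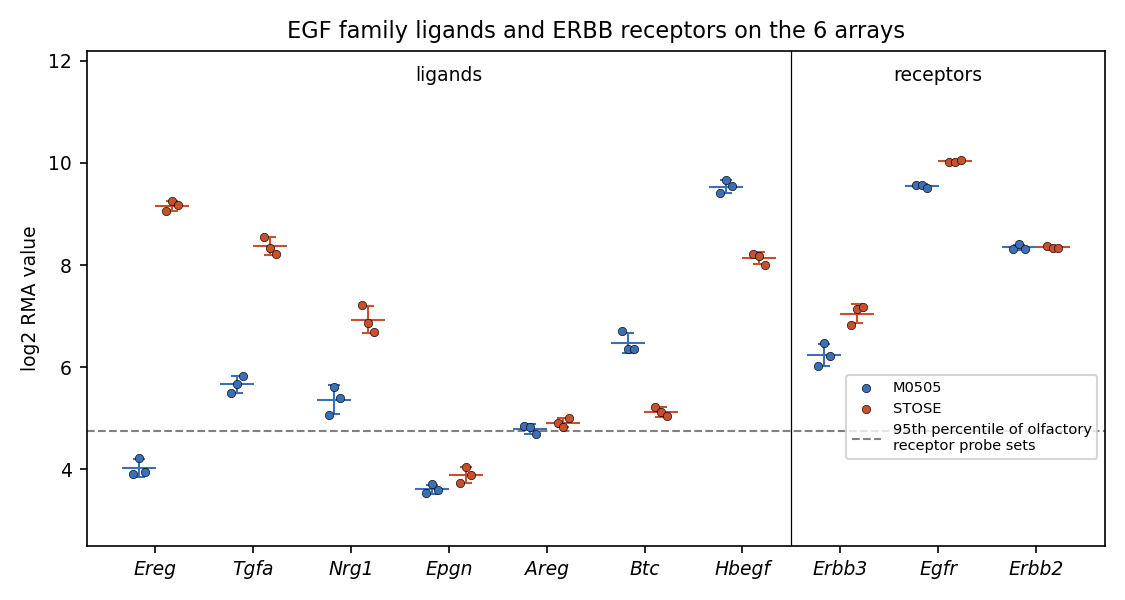
Log2 RMA values (y axis) of the 7 ligand and 3 receptor genes (x axis) on each of the 3 M0505 and 3 STOSE arrays. Points are arrays, horizontal marks are means, bars are the SD, and the dashed line is the background level of 4.74; the M0505 points of *Ereg* lie under it and the STOSE points far above, and *Erbb2* lies at the same height in both lines.

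*Ereg*, the gene of epiregulin, had log2 values of 3.90, 4.23 and 3.95 on the M0505 arrays and of 9.05, 9.25 and 9.18 on the STOSE arrays. All M0505 values were under background and all STOSE values were far above it. The difference of the means, 4.03 ± 0.18 (SD, n = 3) against 9.16 ± 0.10 (SD, n = 3), was 5.13 on the log2 scale, or 35.1-fold between the measured values, which ranked 7 among the rises of all genes. Because the M0505 values were under background, the rise is given as at least 21.4-fold, the STOSE mean against the background level. *Ereg* was in the fit of all genes and in its counts, but no p is given for it, since the rise was known beforehand.

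*Tgfa* encodes transforming growth factor α, a ligand that cells often use to stimulate their own EGFR. Its log2 values were 5.48, 5.67 and 5.83 in M0505 cells and 8.56, 8.34 and 8.22 in STOSE cells. Every array was above background, and the lowest STOSE array exceeded the highest M0505 array by more than the range within either line. The log2 fold change was 2.71 (standard error 0.11, limma adjusted p = 3.33e-07), and it ranked 90 among the rises of all genes.

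*Nrg1* encodes neuregulin, a ligand of ERBB3 and ERBB4 with many isoforms, which 1 probe set cannot separate. It had log2 values of 5.06, 5.62 and 5.40 in M0505 cells and of 7.21, 6.87 and 6.69 in STOSE cells. The lines did not overlap, although *Nrg1* had the largest standard error of the 10 genes. The log2 fold change was 1.57 (standard error 0.16, limma adjusted p = 6.46e-05).

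Of the ligands that were lower in STOSE cells, *Hbegf* encodes heparin-binding EGF-like growth factor. It had log2 values of 9.40, 9.66 and 9.55 in M0505 cells and of 8.21, 8.18 and 7.99 in STOSE cells. It was well above background in both lines, so STOSE cells had less of this RNA without losing it. The log2 fold change was −1.41 (standard error 0.09, limma adjusted p = 3.12e-06). *Btc*, the gene of betacellulin, had log2 values of 6.70, 6.36 and 6.36 in M0505 cells and of 5.22, 5.11 and 5.04 in STOSE cells. Its STOSE arrays stood close above background, and the log2 fold change was −1.35 (standard error 0.10, limma adjusted p = 9.15e-06). In limma's treat test, which asks whether a change is greater than 2-fold, the calls of *Btc* (adjusted p = 0.0578) and *Nrg1* (adjusted p = 0.0586) were lost.

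The other 2 ligands stayed near background. *Areg*, the gene of amphiregulin, had log2 values of 4.85, 4.84 and 4.68 in M0505 cells and of 4.90, 4.82 and 5.00 in STOSE cells. These ranges overlapped, and the log2 fold change of 0.12 had a 95% confidence interval of −0.05 to 0.29 (limma adjusted p = 0.198). *Epgn*, the gene of epigen, was under background on all 6 arrays, at 3.53, 3.70 and 3.59 in M0505 cells and at 3.73, 4.03 and 3.88 in STOSE cells. The difference of 0.27 (95% confidence interval 0.07 to 0.48, limma adjusted p = 0.0279) passed the adjusted p but lay within a range where the arrays give no level. It did not pass after further quantile normalization (limma adjusted p = 0.129), and with an array left out the limma adjusted p ranged from 0.00821 to 0.0915 and passed only without M0505 replicate 2 or without STOSE replicate 1.

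Of the receptors, *Egfr* had log2 values of 9.57, 9.57 and 9.52 in M0505 cells and of 10.02, 10.02 and 10.06 in STOSE cells. The spread within each line was small and the lines did not overlap. The log2 fold change of 0.49 (95% confidence interval 0.36 to 0.61, limma adjusted p = 9.07e-05) corresponds to 1.40-fold and was under the fold threshold. *Erbb3*, which encodes a receptor with little kinase activity of its own that binds neuregulins, had log2 values of 6.03, 6.47 and 6.22 in M0505 cells and of 6.83, 7.14 and 7.17 in STOSE cells. Here too the lines did not overlap, and the log2 fold change was 0.81 (95% confidence interval 0.51 to 1.10, limma adjusted p = 0.00078), or 1.75-fold. *Erbb2* had log2 values of 8.31, 8.41 and 8.32 in M0505 cells and of 8.37, 8.34 and 8.33 in STOSE cells. The STOSE values lay inside the M0505 range, and the difference of 0.00043 had a 95% confidence interval of −0.13 to 0.13 (limma adjusted p = 0.995).

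These sizes depend in part on how the arrays are set against each other. The median log2 fold change of all genes was 0.08. Centring each array on the median of its genes, which differed between the lines, added 0.20 to every log2 fold change. *Erbb3* then reached 1.01 and was called higher, and *Areg* (0.32, limma adjusted p = 0.00425) and *Erbb2* (0.20, limma adjusted p = 0.00994) passed the adjusted p alone, while the 5 calls above were kept. Under centring the genes called higher made up 55.5% of all calls, against 39.2% on the values as deposited.

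Of the family genes outside the 10, *Egf*, *Nrg3*, *Nrg4* and *Erbb4* were on the arrays. *Erbb4*, the other neuregulin receptor, had log2 values of 6.96, 6.29 and 6.42 in M0505 cells and of 4.37, 4.34 and 4.54 in STOSE cells. All STOSE arrays were under background, so its fall of 2.14 on the log2 scale (standard error 0.16, limma adjusted p = 8.40e-06) was one of at least 3.52-fold. *Egf* was low in both lines, at 5.35 and 5.38, with a 95% confidence interval of the difference of −0.14 to 0.21. *Nrg3* (3.77 and 3.81) and *Nrg4* (3.52 and 3.48) were under background in both lines.

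**Figure D2:**
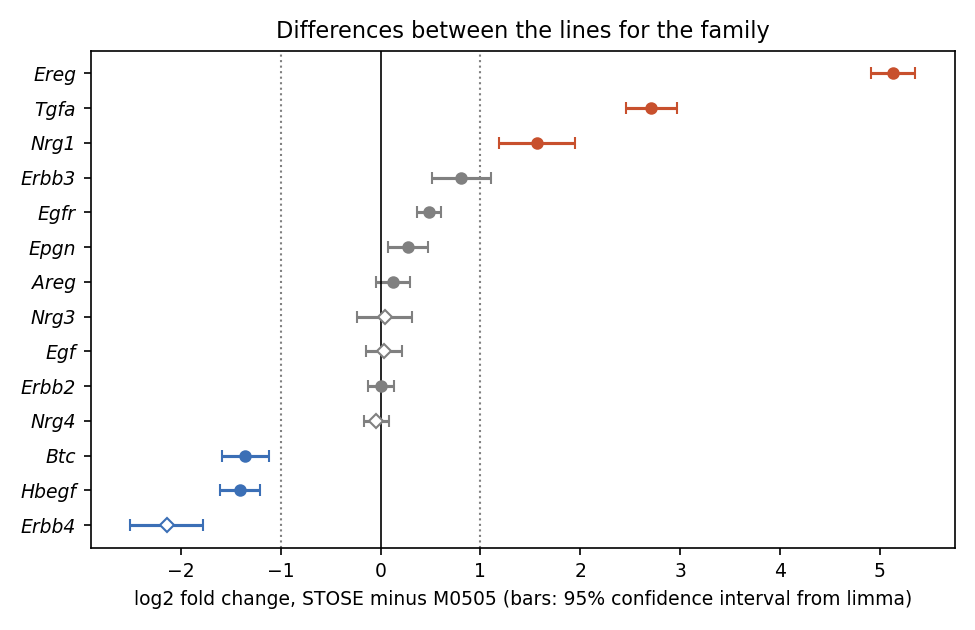
Log2 fold change of STOSE over M0505 cells (x axis) for the 10 family genes (filled circles) and the 4 other family genes (open diamonds), with 95% confidence intervals from limma. Orange marks genes called higher, blue genes called lower and grey genes not called, and dotted lines mark 2-fold; *Ereg*, *Tgfa* and *Nrg1* lie to the right of the 2-fold line and *Btc*, *Hbegf* and *Erbb4* to the left.

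In the RefSeq annotation of GRCm38.p6, *Epgn*, *Ereg*, *Areg* and *Btc* follow each other on chromosome 5 with no other gene of the array between them. *Ereg* rose by 5.13 on the log2 scale between the measured values, *Epgn* and *Areg* on either side of it were not called, and *Btc* at the end of the run fell by 1.35. Differences between the neighbours were not tested. The 10 nearest genes of the array on the *Epgn* side, most of them chemokine genes, had log2 fold changes from −0.05 to 0.59, and 8 of them were under background in both lines. By the adjusted p alone 4 of these 10 were higher and none lower, against 31.6% and 24.8% of all genes, and none was called. Among the 4, *Ppbp* (3.40 in M0505 and 3.81 in STOSE cells) and *Cxcl15* (2.83 and 3.01) were under background in both lines. The 10 nearest genes on the *Btc* side had log2 fold changes from −1.82 to 0.33 with a median of −0.70, and 9 of them were above background in 1 or both lines. By the adjusted p alone 8 of these 10 were lower and 2 were higher, against 24.8% and 31.6% of all genes, and 2 were called lower, *Rchy1*, a ubiquitin ligase gene (log2 fold change −1.10, standard error 0.06), and *Naaa*, a lysosomal amidase gene (−1.82, standard error 0.12). None of the 20 neighbours was called higher and 2 were called lower, against 4.90% and 7.59% of all genes.

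**Figure D3:**
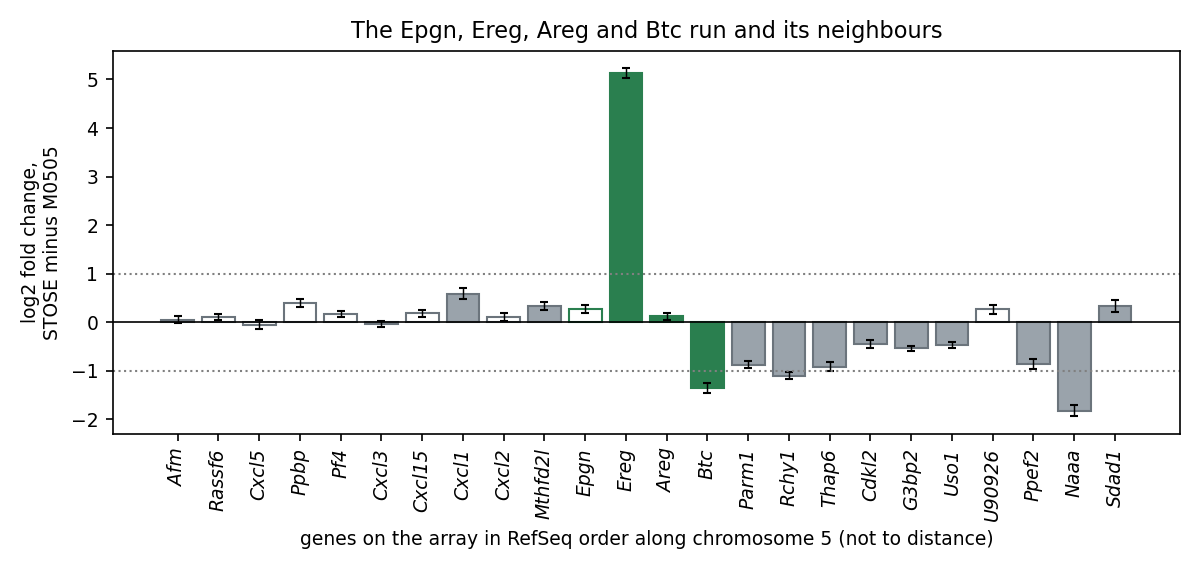
Log2 fold change of STOSE over M0505 cells (y axis, bars with the standard error) for the *Epgn*, *Ereg*, *Areg* and *Btc* run (green) and the 10 nearest genes of the array on each side (grey), in RefSeq order and not to distance. Unfilled bars are genes under background in both lines and dotted lines mark 2-fold; *Ereg* is the one bar above 2-fold, and 8 of the 10 genes after *Btc* lie below 0.

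Of 96 other genes of the pathway on the arrays, 14 were called higher (14.6%) and 6 lower (6.25%). The shares of all genes were 4.90% and 7.59%. Of the 96, 93 were above background in both lines, against 13704 of all 20405 genes. Without the dimmest 50% of genes, 13 pathway genes were higher and 3 lower, and the shares of all genes tested were 7.60% and 10.8%. The median log2 fold change of the 96 was 0.05 beside 0.08 for all genes. Of 13 genes for the release of ligands, 2 were higher and 4 were lower, with a median of −0.40. *Cd9*, a tetraspanin that binds the HB-EGF precursor, rose by 1.53 (standard error 0.14, limma adjusted p = 3.31e-05) and the metalloprotease gene *Adam15* by 1.20 (standard error 0.06). *Rhbdf2*, which encodes a carrier that matures the main ligand sheddase ADAM17, was lower (−1.19, standard error 0.07), as were *Adam19* (−1.26), *Bace1* (−1.11) and *Adam12* (−1.01). *Adam17* itself was at 8.83 in M0505 and 9.34 in STOSE cells, a log2 fold change of 0.52 that was under 2-fold. With arrays centred, *Rhbdf2* (−0.99), *Bace1* (−0.91) and *Adam12* (−0.81) were no longer called, and *Adam12* was not called without M0505 replicate 1 or without STOSE replicate 2 either.

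Of 32 adaptors and kinases, 1 was called higher and none lower, against 4.90% and 7.59% of all genes. The adjusted p alone was passed by 22, 10 of them higher and 12 lower, against 56.5% of all genes. *Map2k1*, which encodes a kinase that acts on ERK, had a log2 fold change of −0.92 (standard error 0.06, limma adjusted p = 5.49e-06), under 2-fold.

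Of 23 negative regulators, 3 were called higher and none lower, against 4.90% and 7.59% of all genes, with a median of 0.23. The list was not uniformly higher, and its lowest log2 fold change was −0.97. The adjusted p alone was passed by 11 higher and 6 lower genes, against 31.6% and 24.8% of all genes. *Sh3kbp1*, which encodes an adaptor that joins CBL in the uptake of EGFR, had log2 values of 6.93, 6.34 and 6.41 in M0505 cells and of 9.29, 9.32 and 9.24 in STOSE cells, a rise of 2.72 (standard error 0.14, limma adjusted p = 1.17e-06). *Spry1*, a Sprouty inhibitor of the RAS cascade, rose by 2.37 (standard error 0.12, limma adjusted p = 8.79e-07). *Errfi1*, which encodes a direct inhibitor of the EGFR kinase that EGFR signaling itself induces, had values of 8.50, 8.49 and 8.59 in M0505 cells and of 9.97, 9.76 and 9.71 in STOSE cells, a rise of 1.29 (standard error 0.08, limma adjusted p = 2.88e-06).

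Of 24 genes known to be induced by EGF, 8 were called higher and 1 lower, with a median of 0.35. The shares of all genes called were 4.90% and 7.59%. The adjusted p alone was passed by 13 higher and 5 lower genes of the 24, against 31.6% and 24.8% of all genes. The largest rise was that of *Fosl1*, an AP-1 subunit gene, with log2 values of 6.66, 6.02 and 5.77 in M0505 cells and of 10.17, 9.98 and 9.64 in STOSE cells. The difference was 3.78 (standard error 0.22, limma adjusted p = 2.15e-06). The cyclin gene *Ccnd1* rose by 2.63 (standard error 0.19), and the transcription factor genes *Atf3*, *Maff* and *Egr1* rose by 1.90, 1.36 and 1.17 and the immediate early gene *Ier2* by 1.08. *Ptgs2*, the gene of an inducible prostaglandin synthase, was higher by 1.07, but it was not called without M0505 replicate 2 or without M0505 replicate 3 (0.94). *Fos* was the gene called lower (−1.15, standard error 0.18, limma adjusted p = 0.00059), but it was at −0.95 with arrays centred and at −0.93 without STOSE replicate 1, both under 2-fold.

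**Figure D4:**
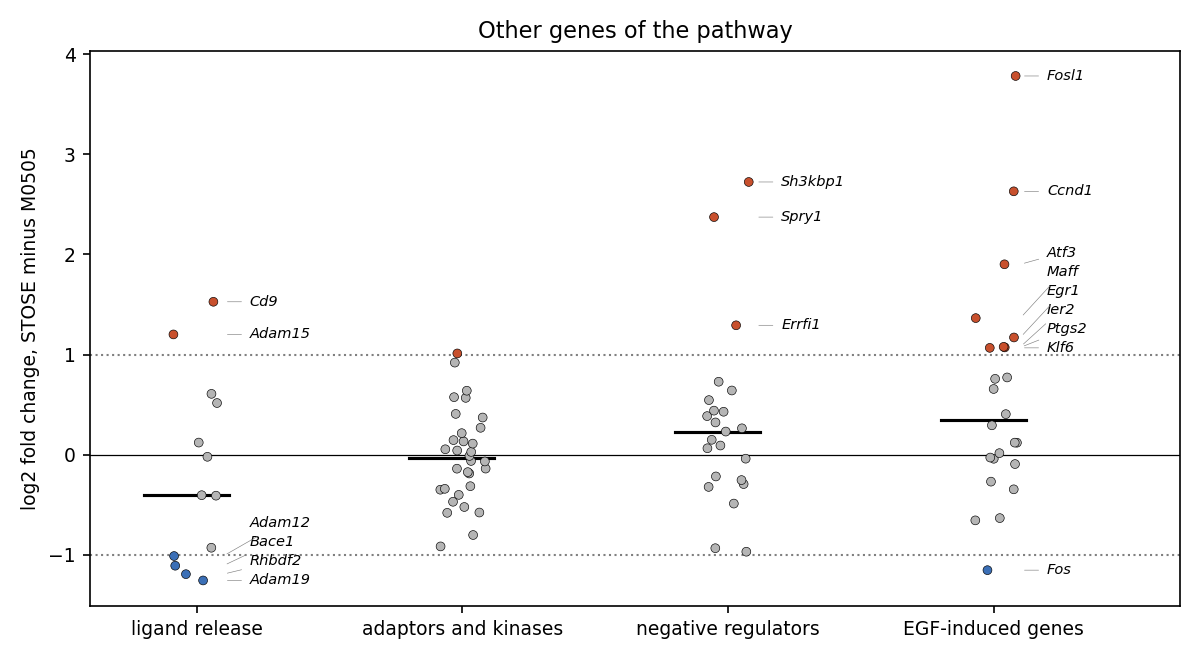
Log2 fold change of STOSE over M0505 cells (y axis) for the 13 ligand release genes, 32 adaptors and kinases, 23 negative regulators and 24 EGF-induced genes (x axis). Points are genes, orange if called higher, blue if called lower and grey if not called, names are given in lists with more than 1 gene called, short black lines are medians of the lists, and dotted lines mark 2-fold; *Fosl1*, *Sh3kbp1*, *Ccnd1* and *Spry1* are the 4 highest points.

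The genes whose pattern over the 6 arrays was nearest to that of *Ereg* were *Calcrl*, *Igfbp4*, *Aif1l*, *Mgll* and *Glipr1*. Likeness was the Euclidean distance between the 6 log2 values after each gene's M0505 mean was subtracted, and it was 0.197, 0.364, 0.390, 0.459 and 0.541 in that order. With 2 groups of 3 arrays this measure reads mainly the size of the difference, and the measured log2 differences of these 5 genes were 4.90 to 5.24. *Calcrl* and *Mgll* were under background in M0505 cells, as *Ereg* was, so that their rises are ones of at least 16.2-fold and 29.5-fold.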

How the data were processed

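RNA of M0505 (3 arrays) and STOSE cells (3 arrays) was labelled from 300 ng and hybridized to 1-color Affymetrix mouse gene arrays. The authors deposited log2 values made by robust multi-array average (RMA) in Affymetrix Expression Console, per the submitters' processing notes, which corrects background, quantile normalizes across arrays and summarizes each probe set. Its version, the genome build and the annotation release are not given in the sources used here. The deposited table also holds the authors' line means and fold changes, which were not used. Probe signals were not used here, so background correction could not be varied. Arrays have no sequencing depth, and their number sets the precision: with 3 in each line, the smallest two-sided exact permutation p is 0.1.

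The table held 28944 probe sets, 23530 with a symbol. The probe set with the highest mean represented each of 20405 genes, which were fitted together in R 4.3.3 with limma 3.58.1 (lmFit, then eBayes), without covariates. The fit was tested on simulated data. The members, the pathway and marker lists and the background level were chosen with earlier results of these data known, so counts over lists are descriptions. Genes named were the 10 members, the 4 other family genes on the arrays, called genes of the pathway lists (at most 6 per list and direction by size of change), called neighbours on chromosome 5, the 5 nearest patterns and markers. *Adam17*, *Map2k1*, *Ptgs2*, *Ppbp*, *Cxcl15* and the pairs of genes in the closing section were named after their values were seen. Some genes that this rule would name are not reported here. Of the list genes, *Nrg2* and *Muc16* matched no symbol, and 2 matched by a RefSeq synonym. Alternatives were further quantile normalization, array centring, filters on dim genes, the mean of the probe sets, an intensity trend with robust estimation, limma's treat, the methods' t-test, other fold thresholds, a replicate block and leaving out each array.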

Additional observations from a re-analysis of the deposited data

How the results depend on the processing

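The 3 family genes called higher and the 2 called lower were the same genes when any single array was left out (3 to 3 and 2 to 2), after further quantile normalization, without the dimmest 25% of genes, with an intensity trend and under the methods' t-test with or without adjustment. Without a fold threshold 6 were higher. Without the dimmest 50% of genes, which takes *Nrg1* and *Btc* out of the test, 2 were higher and 1 was lower. Lower genes numbered 1 under treat, where 2 were higher, and 0 at 4-fold, where *Ereg* and *Tgfa* were kept as higher. The difference of *Epgn* did not pass the methods' t-test, with or without adjustment. Pathway genes higher, 14 in the report, were 8 under treat, 38 without a fold threshold and 4 at 4-fold, and 13 to 14 with an array left out. Pathway genes lower, 6 in the report, were 2 with arrays centred, 3 without the dimmest 50% of genes, 1 under treat, 31 without a fold threshold and 1 at 4-fold, and 5 to 7 with an array left out. Of the genes tested, 4.90% were higher in the report. This share was 7.185% with arrays centred, 7.60% without the dimmest 50% of genes and 2.48% under treat. It was 31.6% without a fold threshold, 0.912% at 4-fold and 4.68% to 5.22% with an array left out. The share of genes lower, 7.59% in the report, was 5.77% with arrays centred, 10.8% without the dimmest 50% of genes and 4.87% under treat. It was 24.8% without a fold threshold, 2.49% at 4-fold and 7.39% to 7.80% with an array left out. The log2 fold change of *Erbb2* ranged from −0.018 (without M0505 replicate 1) to 0.031 with an array left out, and was also negative without M0505 replicate 3 (−0.011) and without STOSE replicate 1 (−0.010), all within its interval. Each family gene had 1 probe set, so no other could be tried. Arrays with the same replicate number deviated together with r = 0.26, 0.04 and 0.25 across genes, so the numbers were not taken to pair the arrays. Every array except STOSE replicate 2 correlated best with the array of its own number, which is a hint from the data and not from the design. With the replicate block 1001 genes were higher and 1548 lower, with 3 and 2 family genes and 14 and 6 pathway genes.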

Other observations

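Several pairs of related genes in the pathway lists lay in opposite directions. The pairs were picked after their values were seen, so they carry no test beyond that of each gene, and the difference within a pair was not tested. *Rhbdf1* and *Rhbdf2*, which encode both iRhom carriers of ADAM17, had log2 fold changes of 0.61 and −1.19 (limma adjusted p = 0.000151 and 2.92e-06). *Nck1* and *Nck2*, which encode adaptors that link receptors to actin, were at 0.57 and −0.58 (limma adjusted p = 8.38e-05 and 9.99e-05), both under 2-fold. *Fosl1* and *Fos* were at 3.78 and −1.15.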
